A study of Mustela putorius furo with 8 samples.

Results

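SOX2 and PAX6 are the genes of 2 transcription factors, and both were followed here through every cell cluster, library and single cell of ferret pancreatic ductal epithelial (PDE) cultures. They were 2 of the 27912 genes counted, and they were chosen because earlier work on these same data had shown them in different cells, so their levels and their separation are given as descriptions and without a test. The cultures came from newborn ferrets, either wild type (WT) or with both CFTR copies knocked out (CF), whose duct cells had been passaged repeatedly and then polarized at an air-liquid interface. Each genotype gave 1 single-cell RNA library on day 2, 5, 7 and 9 of polarization, with cells of several donors pooled, so there were 8 libraries and no replicate of any genotype and day. Differences between the cell groups of a library and differences between its donors cannot be told apart. Intervals are 95% intervals of counting error only and say nothing of the spread between animals or cultures.

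SOX2 is an SRY-box (SOX) factor best known for keeping stem cells undifferentiated and for setting the identity of the anterior foregut, which gives rise to the esophagus and the airways, and it is usually quiet in pancreatic epithelium. PAX6 is a paired-box (PAX) factor that is required for eye formation and, in the pancreas, for the hormone-producing endocrine cells. The proteins act together on lens genes, where they bind the same enhancer, so cells that hold both are known from another tissue. PDX1, the main regulator of pancreas formation, and CFTR, the chloride and bicarbonate channel lost in cystic fibrosis, were read beside them.

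The retained cells numbered between 4634 and 6224 in the WT libraries and between 1607 and 4499 in the CF libraries, with totals of 34735952 to 114585136 unique molecular identifiers (UMIs) per library. The CF day 7 library had the fewest cells and the lowest total. Its median cell was deep (23427 UMIs), but 411 of its 1607 cells were under 3000 UMIs, against 39 to 224 cells in the others. Pairs of libraries shared between 1 and 14 cell barcodes, at most 0.400% of the smaller library. CFTR, the targeted gene, had 753, 1712, 1315 and 2498 UMIs in the WT libraries and 256, 621, 386 and 570 UMIs in the CF libraries on day 2, 5, 7 and 9. The CF libraries therefore held CFTR transcripts, and whether these come from the disrupted gene was not tested, so WT and CF stand below for the libraries labelled so. Duct keratins were abundant throughout, with KRT19 between 3206 and 6667 counts per 1e6 UMIs (CPM) and KRT7 between 871 and 3772 CPM in the cell groups described below. The 5 acinar enzyme markers found in the files summed to at most 0.504 CPM.

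In the annotation of assembly ASM1176430v1.1, which names no chromosome here, SOX2 lies at 82965053 to 82967640. SOX2 sits inside the span of a long non-coding RNA gene, LOC123394417 (82876288 to 82995902), and whether the counting used strand is not given in the sources used here, so reads of this pair may be shared. LOC123394417 was at 2.15 to 2.23 CPM where SOX2 was high and at most 0.360 CPM elsewhere. PAX6 lies at 13329718 to 13348005. Its neighbors are the non-coding LOC123387768, 9601 bases away, and ELP4, a subunit of the Elongator complex, 5005 bases away.

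SOX2 was present in all 4 WT libraries and nearly absent from the CF libraries. WT held 13124, 6934, 5793 and 7528 SOX2 UMIs on day 2, 5, 7 and 9, which corresponds to 115, 68.5, 69.8 and 88.8 CPM. The CF libraries held 1, 1, 3 and 1 SOX2 UMIs. The CF to WT ratio was 8.53e-05 (2.16e-06 to 0.000475) on day 2 and 0.00124 (0.000255 to 0.00362) on day 7, the day with the most CF UMIs of SOX2. On the log2(CPM + 1) scale the CF minus WT difference of SOX2 was -6.84, -6.10, -6.03 and -6.46 in day order.

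PAX6 was expressed in both genotypes and followed a different course in each. In WT its level was 19.8, 68.2, 43.6 and 28.5 CPM on day 2, 5, 7 and 9, highest on day 5. In CF it was 84.0, 68.5, 57.1 and 47.5 CPM, highest on day 2. CF was above WT 4.24-fold (4.05 to 4.44) on day 2, 1.31-fold (1.24 to 1.38) on day 7 and 1.67-fold (1.57 to 1.76) on day 9, but on day 5 the ratio was 1.00 (0.968 to 1.04). The equality on day 5 held for UMI sums, in which deep cells weigh more. With the mean of the CPM of each cell instead, PAX6 was at 21.6, 47.4, 34.3 and 25.5 CPM in WT and 79.1, 67.2, 57.4 and 50.3 CPM in CF, a ratio of 3.67, 1.42, 1.67 and 1.97 by day. PDX1, for comparison, had 1 UMI in the 4 WT libraries together and 345, 336, 175 and 222 UMIs in the CF libraries.

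The deposited clusters resolved the WT average into cells with SOX2 and cells with PAX6. The authors had clustered the genotypes apart, into 41 WT and 30 CF clusters, and the members of a cluster were summed here to a CPM value. Of the WT clusters, 12 had under 10 CPM of SOX2 and are called SOX2-low, and the other 29 are called SOX2-high; the limit was set on these data. It fell in a wide gap, with WT cluster 38 at 4.87 CPM just under it and WT cluster 36 at 50.6 CPM just above. Cluster 38 held only 1 SOX2 UMI, with an interval of 0.123 to 27.1 CPM that includes the limit. SOX2 was at 0.806 to 4.87 CPM in the SOX2-low clusters and at 50.6 to 205 CPM, median 116, in the SOX2-high clusters. PAX6 took the opposite order, at 58.4 to 215 CPM, median 110, in the SOX2-low clusters and at 0.666 to 78.6 CPM, median 3.26, in the SOX2-high clusters. In the CF clusters SOX2 had no UMI in 25 of 30, while PAX6 was at 38.2 to 126 CPM, median 65.7.

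**Figure D1:**
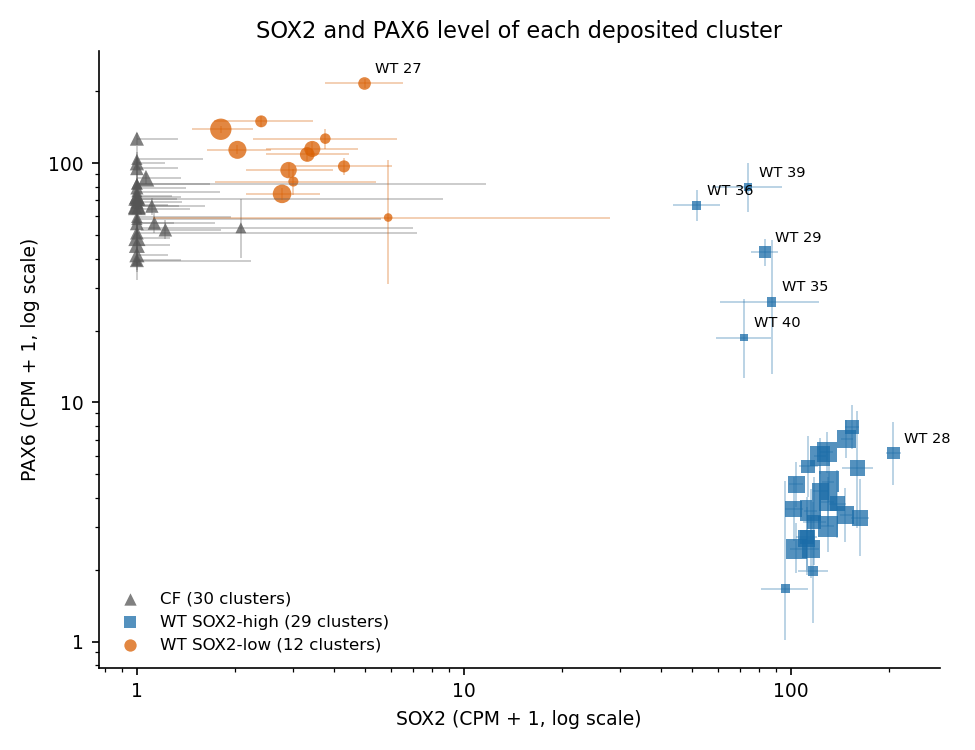
PAX6 against SOX2 level of each deposited cluster, both axes in CPM plus 1 on log scales, with 95% counting intervals as lines and marker size growing with the number of cells. The 12 SOX2-low WT clusters (circles) and the 30 CF clusters (triangles) lie at high PAX6 and under 5 CPM of SOX2, and 24 of the 29 SOX2-high WT clusters (squares) lie under 10 CPM of PAX6, with 5 numbered clusters between.

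The highest PAX6 level of any cluster was in WT cluster 27, the proliferating ductal class, at 215 CPM (206 to 225), where SOX2 was at 3.97 CPM. The highest SOX2 level was in WT cluster 28, a proliferating acinar cluster, at 205 CPM (194 to 217), where PAX6 was at 5.15 CPM. The other proliferating acinar cluster of WT, cluster 25, had 153 CPM of SOX2 and 6.92 CPM of PAX6. In WT the highest cluster of each gene was thus a cluster that the authors had named proliferating, but the clusters next in order were not. Centroacinar cluster 16 and ductal cluster 20 (162 and 159 CPM of SOX2) stood above cluster 25. For PAX6, ductal clusters 31 and 0 (149 and 138 CPM) came next after cluster 27. Among CF clusters PAX6 was highest in ductal cluster 9 (126 CPM, 119 to 133) and in the proliferating acinar cluster 24 (103 CPM, 95.2 to 111), and lowest in centroacinar clusters 28 and 11 (38.2 and 38.4 CPM). Ordered by level, neighboring clusters mostly could not be told apart: counting intervals overlapped in 38 of 40 neighboring WT pairs for SOX2, 38 of 40 for PAX6 and 28 of 29 CF pairs for PAX6. The WT pairs that did not overlap were 38 and 36 and then 16 and 28 for SOX2, and 25 and 40 and then 31 and 27 for PAX6.

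The ductal and centroacinar class names spanned both groups. Cells named ductal fell on both sides, with 4861 SOX2-low ductal cells at 113 CPM of PAX6 and 1.54 CPM of SOX2, and 7314 SOX2-high ductal cells at 4.21 CPM of PAX6 and 123 CPM of SOX2. Centroacinar cells were also split, with 320 SOX2-low cells at 95 CPM of PAX6 and 3609 SOX2-high cells at 9.36 CPM, although clusters 29 and 36 (282 and 97 cells) held 220 and 181 of the 550 PAX6 UMIs of the latter. The centroacinar progenitor class (4192 cells) was SOX2-high throughout in WT, at 112 CPM of SOX2 and 2.75 CPM of PAX6, and so were the acinar and proliferating acinar classes. In CF, by contrast, every class carried PAX6, at 103 CPM in proliferating acinar, 82.0 in ductal, 73.0 in centroacinar progenitor and 55.1 in centroacinar cells. The class-wide WT ductal level therefore mixed both kinds of cell, with SOX2 at 105, 41.6, 49.0 and 39.5 CPM and PAX6 at 25.8, 87.4, 65.2 and 53.6 CPM in day order.

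The SOX2-low and SOX2-high groups were apart on each day in the clusters that a library held in quantity. For SOX2 this followed largely from the limit that defines the groups, and some SOX2-high clusters also held PAX6. Within clusters of at least 50 cells in a library, SOX2 reached at most 8.25 CPM in the SOX2-low clusters and was at least 77.2 CPM in the SOX2-high clusters, with no overlap on any day. PAX6 ran from 61.2 to 226 CPM in the former and from 0 to 56.3 CPM in the latter. On a single day the PAX6 ranges also stayed apart, the closest approach being on day 9 with 61.2 CPM against 48.4 CPM. These were cluster 38, with 12 PAX6 UMIs (31.6 to 107 CPM), and cluster 29 (39.1 to 59.3 CPM), so their counting intervals overlapped. The minimum of 50 cells left out SOX2-high clusters 36 and 39. Over all days these were at 65.9 and 78.6 CPM of PAX6, within the SOX2-low range.

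The SOX2-low cells made up 14.3% of WT cells on day 2 and 33.8%, 27.5% and 27.9% on day 5, 7 and 9 (892, 1801, 1276 and 1510 cells). They held 75.7%, 97.8%, 90.8% and 86.7% of the PAX6 UMIs of the WT libraries but under 1% of the SOX2 UMIs on each day (0.434%, 0.635%, 0.932% and 0.744%). PAX6 within them was at 117, 145, 115 and 81.2 CPM, and in the SOX2-high cells at 5.52, 2.79, 6.09 and 5.44 CPM. The ratio of the PAX6 levels was 21.2 (19.3 to 23.4) on day 2, 52.1 (44.3 to 61.5) on day 5, 18.8 (16.8 to 21.2) on day 7 and 14.9 on day 9. SOX2 in the SOX2-high cells was at 131, 126, 106 and 127 CPM, which was 33.7-fold (26.0 to 44.5) the SOX2-low level on day 2 and 133-fold (98.7 to 183) on day 5. Both ratios were widest on day 5.

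The WT course of PAX6 over the days followed 2 measured quantities. From day 2 to day 5 the whole-library level rose 3.44-fold by UMI sums and 2.20-fold by the mean of the cells, while the level within SOX2-low cells went from 117 to 145 CPM and their share of the library's UMIs from 12.8% to 45.8%. From day 5 to day 9 the level within SOX2-low cells went from 145 to 81.2 CPM and their UMI share from 45.8% to 30.5%. SOX2 in the SOX2-high cells differed less between days, from 106 to 131 CPM, than in the whole WT libraries, from 68.5 to 115 CPM.

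**Figure D2:**
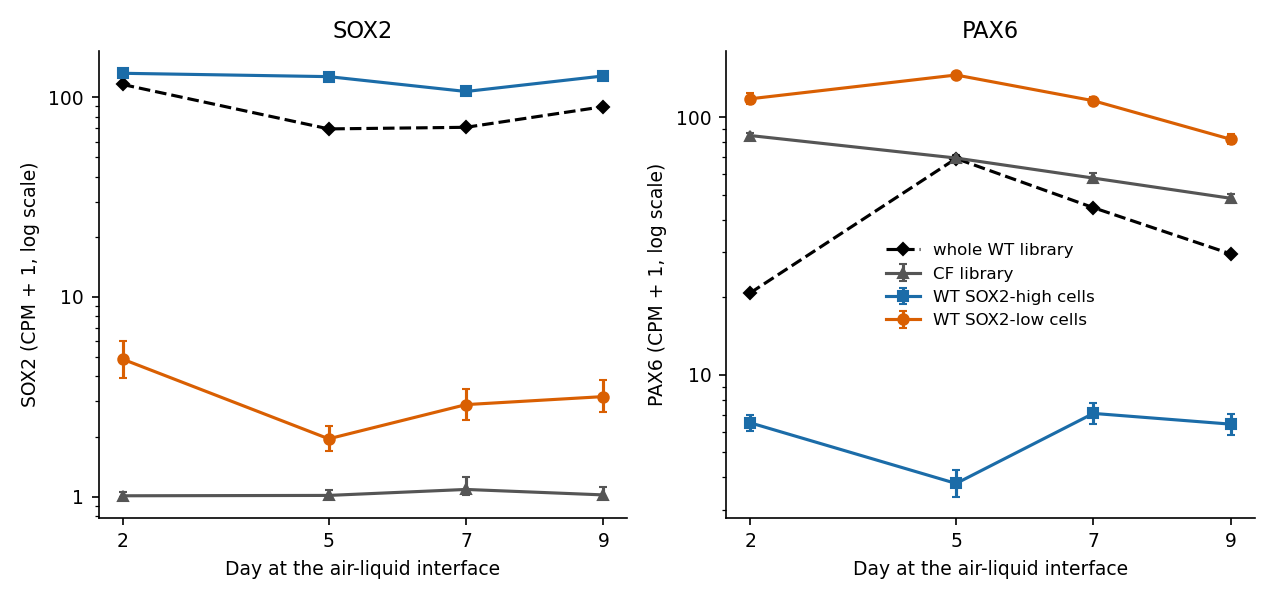
SOX2 (left) and PAX6 (right) level in CPM plus 1 on log scales on day 2, 5, 7 and 9, for whole WT libraries (dashed), CF libraries, and SOX2-high and SOX2-low WT cells, each point 1 library or cell group with its 95% counting interval. PAX6 in CF (47.5 to 84.0 CPM) lies below the SOX2-low WT cells and above the SOX2-high WT cells on every day.

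Set against the SOX2-low WT cells, the direction of the genotype difference in PAX6 turned. PAX6 in CF was 0.717 (0.681 to 0.756), 0.471 (0.454 to 0.489), 0.497 (0.470 to 0.526) and 0.585 times the SOX2-low WT level on day 2, 5, 7 and 9. Against the SOX2-high WT cells it was 15.2-, 24.5-, 9.37- and 8.73-fold higher. The CF libraries were thus between the WT groups in PAX6, and below both in SOX2, since even the SOX2-low WT cells held 57, 44, 54 and 56 SOX2 UMIs on these days against 1 to 3 in the CF libraries. CFTR itself was at 5.31, 4.94, 9.43 and 25.9 CPM in the SOX2-low cells and at 6.76, 27.1, 19.2 and 31.0 CPM in the SOX2-high cells. The single PDX1 UMI of WT was in a SOX2-low cell of day 7.

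A cluster average cannot say whether single cells hold both genes, so detection was counted cell by cell. Each cell was thinned to 3000 UMIs, a cell with at least 1 UMI counting as positive, and shallower cells were left out (73 to 150 per WT library and 39 to 411 per CF library). At this depth most WT cells showed neither gene, 68.3%, 69.3%, 71.5% and 72.3% in day order. SOX2 without PAX6 was found in 26.5%, 18.8%, 19.5% and 21.3% of WT cells, and PAX6 without SOX2 in 4.74%, 11.6%, 8.68% and 6.02%. Both genes were found in 27, 16, 13 and 20 cells, which is 0.439% (0.290 to 0.639), 0.309% (0.177 to 0.502), 0.285% (0.152 to 0.487) and 0.379% (0.232 to 0.584). No CF cell had SOX2 at this depth, which allows a share of cells with a SOX2 UMI of up to 0.0673%, 0.111%, 0.251% and 0.132%. This limits detection and not expression, since 68.6% to 72.8% of the SOX2-high WT cells also showed no SOX2 UMI at this depth. PAX6 was found in 20.7%, 18.2%, 15.2% and 13.0% of CF cells.

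Cells with both genes were fewer than the product of the separate shares gives. If detection of SOX2 and of PAX6 were independent within a library, 85.7, 118, 81.1 and 73.4 WT cells would have shown both. The observed numbers were 0.315 (0.208 to 0.459), 0.136 (0.0777 to 0.221), 0.160 (0.0854 to 0.274) and 0.273 (0.167 to 0.421) times that product. Without thinning, where a WT cell held a median of 14949 to 16862 UMIs, both genes were found in 6.72%, 2.48%, 3.80% and 3.67% of cells, at 0.538, 0.166, 0.270 and 0.316 times the product. Counting only cells with at least 2 UMIs of each gene, the unthinned libraries held 47, 15, 39 and 36 such cells against a product of 242, 393, 263 and 206.

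Within a cluster the deficit was not seen. When the product was formed inside each cluster and summed, the observed number of cells with both genes at 3000 UMIs was 1.19 (0.787 to 1.74), 1.79 (1.02 to 2.91), 1.05 (0.560 to 1.80) and 1.43 (0.876 to 2.21) times the sum in day order. Those ratios rest on 1 random draw of UMIs. With the exact chance of detection of every cell in place of the draw, they were 1.00, 1.1, 0.959 and 1.06, against 0.288, 0.0730, 0.151 and 0.208 for whole libraries. The separation of SOX2 and PAX6 thus lay between the clusters. The authors' clustering had used the expression of the same cells, so the cluster boundaries are not independent of these genes.

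**Figure D3:**
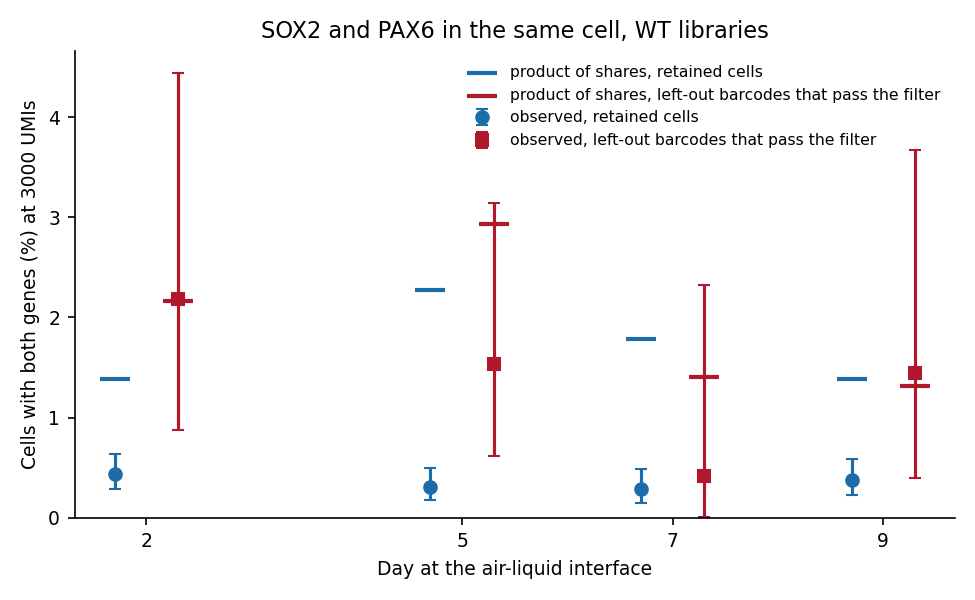
Percent of WT cells with a UMI of both SOX2 and PAX6 after thinning to 3000 UMIs, by day, for retained cells (circles) and for barcodes that pass the stated filter but are not in the authors' cell table (squares), with 95% intervals; horizontal bars mark the product of the separate shares in each. Retained cells lie at 0.285% to 0.439%, under their product of 1.39% to 2.27%, and the left-out barcodes at 0.420% to 2.18%.

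Each gene was also seen at a low level in the other group. Of the SOX2-low cells, 0.561%, 0.167%, 0.629% and 0.617% had a SOX2 UMI at 3000 UMIs, against 31.4%, 29.2%, 27.2% and 29.7% of the SOX2-high cells. Of the SOX2-high cells, 1.29%, 0.858%, 1.25% and 1.28% had a PAX6 UMI, against 28.1%, 32.6%, 29% and 19.8% of the SOX2-low cells. The median depth of these cells was 13344 to 21220 UMIs in the SOX2-low and 14662 to 16790 UMIs in the SOX2-high groups. Droplets also carry free RNA from other cells, and no WT cluster was known in advance to lack either gene, so these shares have no background of their own. The genes most like SOX2 and PAX6 were set beside them as a description. These genes were picked by correlation over the same WT clusters, so their level in the other group was part of the choice. Their levels are therefore no background for SOX2 or PAX6. SOX2 in the SOX2-low cells stood at 2.97%, 0.754%, 1.79% and 1.71% of its SOX2-high level. The 10 genes most like SOX2 had medians of 5.61%, 1.72%, 3.01% and 2.40%. PAX6 in the SOX2-high cells stood at 4.71%, 1.92%, 5.31% and 6.70% of its SOX2-low level, while the 10 genes most like PAX6 had medians of 1.33%, 1.67%, 4.12% and 4.58%. It stood above all 10 on day 2, 7 and 9, and on day 5 4 of the 10 were above it. Of the 1356 PAX6 UMIs of the SOX2-high cells, 508 lay in 554 cells of 5 clusters that are described below. Without these clusters, which were picked for their PAX6, the level was 3.30 CPM in place of 5.06 CPM over the 4 days, or 4.07%, 1.30%, 2.27% and 3.27% of the SOX2-low level by day, with 0, 2, 0 and 1 of the 10 genes above it. The part of free RNA in these levels was not tested.

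Few UMIs of either gene were counted per cell. Over all cells of a group, those without the gene included, the medians were low. In the SOX2-high cells the median SOX2 count per cell was 2, 1, 1 and 1 UMIs and the highest 22, 15, 13 and 18. In the SOX2-low cells the median PAX6 count was 1, 3, 2 and 1 UMIs and the highest 16, 29, 19 and 11. At 3000 UMIs PAX6 was missing from 71.9% of SOX2-low cells on day 2 and 67.4% on day 5. A Poisson count of the same mean gives 71.5% and 65.5%. SOX2 was missing from 68.6% of SOX2-high cells on day 2, where the Poisson count gives 66.7%. The variance over the mean was 1.05, 1.17 and 1.16 in the same order. Thinning to means of 0.336, 0.423 and 0.404 UMIs per cell brings counts near Poisson. These shares therefore cannot show how evenly the cells express the genes. Without thinning the gene was missing from 25.7%, 14.3% and 18.9% of the cells of these groups.

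Cells with both genes lay mostly on the SOX2-high side. At 3000 UMIs 68 of the 76 cells with both (89.5%) were in SOX2-high clusters, and without thinning 805 of 925 (87.0%) were. SOX2-high cells made up 74.4% of the WT cells of at least 3000 UMIs and 74.6% of all. The separate detection shares within each group already put most such cells on that side. At 3000 UMIs their product gave 21.4, 8.46, 11.2 and 14.6 SOX2-high cells in day order, where 25, 14, 11 and 18 were found. For the SOX2-low cells it gave 1.40, 0.979, 2.32 and 1.78, where 2 were found on each day. Of the 805 cells, 165 lay in the 5 clusters described next. The 925 cells had a median of 21536 UMIs, against 15948 over all WT cells. In 788 of them (85.2%) at least 1 of the genes was represented by a single UMI, and 24 (2.59%) had at least 3 UMIs of each.

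Between the main groups stood 5 small SOX2-high clusters with at least 10 CPM of PAX6. WT cluster 36 (97 cells, centroacinar) had 50.6 CPM of SOX2 and 65.9 CPM of PAX6, and WT cluster 39 (32 cells, ductal) had 73.1 and 78.6 CPM. WT cluster 29 (282 cells, centroacinar) had 82.3 CPM of SOX2 and 41.5 CPM of PAX6, and a median mitochondrial share of 14.3%. WT cluster 35 (114 cells) had 86.4 and 25.4 CPM at a median of only 1898 UMIs per cell, and WT cluster 40 (29 cells) had 71.0 and 17.7 CPM at a median of 49263 UMIs. In cluster 36, 46 of 97 cells (47.4%, 37.2 to 57.8) held both genes without thinning, 1.00 (0.736 to 1.34) times the product of the separate shares, and in cluster 29 86 of 282 cells did, 1.02 (0.815 to 1.26) times the product. In cluster 39 it was 19 of 32 cells, 0.974 (0.587 to 1.52) times the product, and in cluster 40 13 of 29 cells, 1.01 (0.535 to 1.72) times. In cluster 35 the number was 1 cell, 0.551 (0.0139 to 3.07) times the product. Clusters 36, 39 and 40 were deeper than WT cells in general, with medians of 27837, 26941 and 49263 UMIs against 15948, and whether their barcodes hold single cells was not tested.

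Barcodes that the authors had left out of their cell table had not been used in the choice of genes, but they were themselves partly picked on expression. The authors dropped barcodes under 200 genes or over 20% mitochondrial UMIs, filtered further on gene number by a limit not given in the sources used here, and removed doublets. Barcodes within the stated limits but missing from the table thus include those called doublets and those removed on gene number. The doublet calls used the expression of the same barcodes, and removing them also shaped the retained cells. The shares below are therefore no independent measure of how often single cells hold both genes. In WT, 321, 456, 238 and 276 such barcodes had at least 3000 UMIs, and 994 more were shallower. Both genes were found in 7, 7, 1 and 4 of them, which is 2.18%, 1.54%, 0.420% and 1.45%. Over the 4 days together this was 19 of 1291 (1.47%, 0.888 to 2.29), against 76 of 21161 retained cells (0.359%, 0.283 to 0.449), a ratio of 4.1 (2.34 to 6.84). By day the ratio was 4.96 (1.82 to 11.7), 4.97 (1.73 to 12.8), 1.47 (0.0347 to 9.81) and 3.83 (0.951 to 11.4), and its interval included 1 on day 7 and 9. Without thinning, over all 349, 835, 452 and 649 left-out barcodes within the limits, it was 4.35 (3.47 to 5.42), 3.43 (2.53 to 4.61), 3.67 (2.71 to 4.92) and 2.22 (1.61 to 3.02), but depth was then not matched, with medians of 32159, 3709, 16051 and 1381 UMIs against 14949 to 16862 in the retained cells. With the exact chance it was 3.43, 5.32, 4.43 and 3.43. The left-out barcodes of at least 3000 UMIs had median depths of 18208 to 33526 UMIs before thinning, and the part of doublets in these values was not tested. Barcodes that failed the filter held both genes in 7 of 2938 (0.238%) by this draw. By the exact chance of detection the shares were 0.455% for failing barcodes, 1.08% for left-out barcodes that passed and 0.287% for retained cells, so the order of failing barcodes and retained cells turned with the draw.

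Along the deposited lineage scores some WT lineages ended in cells with low SOX2 and high PAX6. The authors had ordered WT cells along 15 lineages by pseudotime, and each was divided here into 5 bins of equal numbers of cells. All 15 began alike in bin 1, at 130 to 135 CPM of SOX2 and 5.04 to 6.64 CPM of PAX6. The authors had set the starting cluster of each genotype by its day 2 cells, so this common start was fixed by the method. In lineages 1 to 4 bin 5 was made of SOX2-low cells (95.3% to 99.9%), with SOX2 at 1.16, 1.66, 3.88 and 1.99 CPM and PAX6 at 100, 151, 122 and 120 CPM. Lineage 2 held intermediate averages in bin 3, at 76.0 CPM of SOX2 and 31.6 CPM of PAX6, where 26.0% of the cells were SOX2-low, and lineages 1, 3 and 4 did so in bin 4, where 42.4% to 63.6% were SOX2-low. Those bins held cells of both groups, and whether single cells in them were intermediate was not tested. The other 11 lineages ended at 105 to 169 CPM of SOX2 and 1.86 to 6.18 CPM of PAX6. In the 13 CF lineages PAX6 went from 59.7 to 64.3 CPM in bin 1 to 44.5 to 111 CPM in bin 5, higher in 6 of 13, with lineage 3 at 111 CPM. The scores were built from the expression of the same cells, over the 4 days of a genotype together, and are not days in culture.

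**Figure D4:**
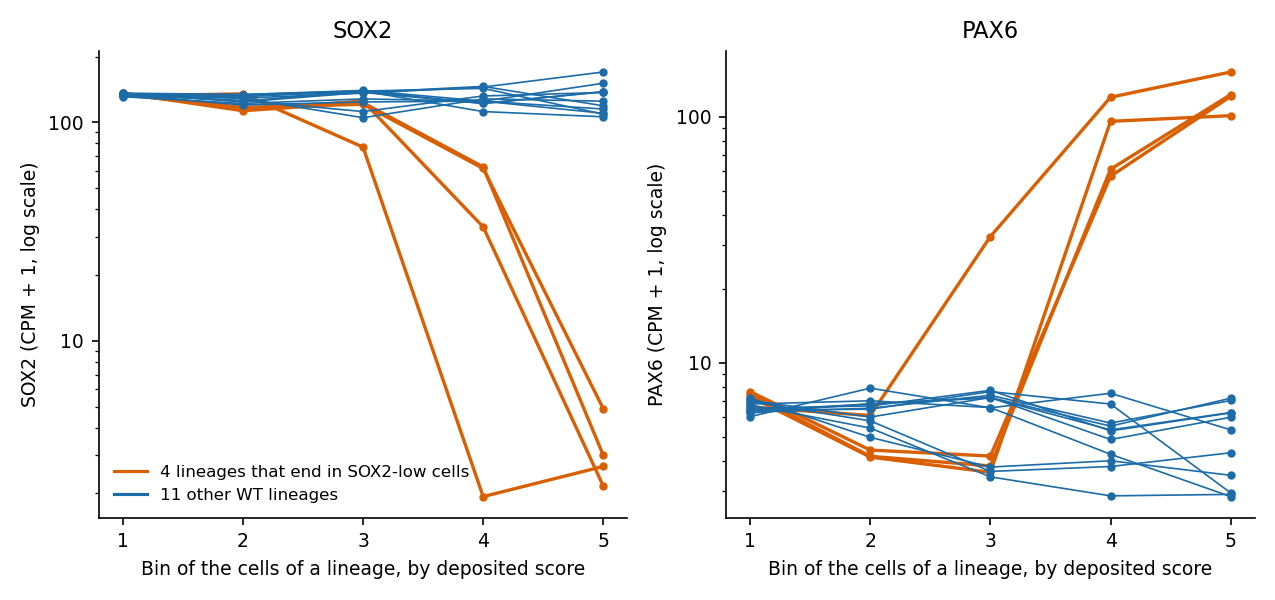
SOX2 (left) and PAX6 (right) level, in CPM plus 1 on log scales, in 5 successive bins of the cells of each of the 15 WT lineages ordered by the deposited score. In 4 lineages (thick) SOX2 ends at 1.16 to 3.88 CPM and PAX6 at 100 to 151 CPM, and in the other 11 (thin) SOX2 ends at 105 to 169 CPM and PAX6 under 10 CPM.

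Other genes of the same families and of related tissues were compared between the WT groups. Among 8943 genes with at least 10 CPM in a cell group on some day, 1.95% were at least 2-fold higher in SOX2-low than in SOX2-high WT cells on all 4 days and 3.00% at least 2-fold lower. At least 4-fold, which was the limit for naming list genes, the shares were 0.760% and 1.17%. In the SOX family 7 of 19 genes were measured at 10 CPM or more, of which 1 was lower (SOX2, which defines the groups) and 1 higher. The latter was SOX7, a factor known from blood vessels and early endoderm, which passed that limit only through the SOX2-low cells and CF, at 16.1, 20.0, 15.7 and 17.4 CPM in the SOX2-low cells, 0.240 to 0.814 CPM in the SOX2-high cells and 7.24 to 11.3 CPM in CF. SOX9, the duct and progenitor factor, was at 2.03 to 8.33 CPM in the SOX2-low cells and 3.07 to 12 CPM in the SOX2-high cells and did not keep a 2-fold difference. In the PAX family only PAX6 and PAX9 were measured at 10 CPM or more. PAX9, which is active in the pharyngeal pouches and the esophagus, passed that limit only through the SOX2-high cells, at 18.6, 18.3, 17.1 and 17.6 CPM in the SOX2-high cells, 0.542 to 1.29 CPM in the SOX2-low cells and 0.434 to 0.920 CPM in CF. PAX4, a PAX factor of islet cells, had no UMI in the retained cells of any library.

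Endocrine genes were mostly undetected or under 10 CPM. Of the 21 listed endocrine lineage genes in the files, which leave out PAX6, 2 were measured at 10 CPM or more, and only ISL1 was called between the WT groups. ISL1, a LIM homeobox factor of islet cells, reached 10 CPM only in the SOX2-low cells and CF, which fixed its direction, and was at 42.2 to 58.1 CPM in the SOX2-low cells against 5.91 to 8.73 CPM in the SOX2-high cells, with CF at 21.7 to 27.6 CPM. NEUROG3, which starts endocrine differentiation, NEUROD1, INS and GCG had no UMI in any library.

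Pancreatic and foregut factors were counted by the same rule. Of 10 measured pancreatic progenitor and duct factors, 2 were higher in the SOX2-low cells and none lower, and the others, such as FOXA1, kept no 2-fold difference. Both higher genes reached 10 CPM only in the SOX2-low cells and CF, so this count does not support a direction. NR5A2, a nuclear receptor of the exocrine pancreas, was at 49.7 to 56.0 CPM in the SOX2-low cells, 0.475 to 2.44 CPM in the SOX2-high cells and 41.6 to 55.3 CPM in CF. FOXA2, an endoderm pioneer factor, was at 21.9 to 37.7 CPM, 3.15 to 4.43 CPM and 13.4 to 26.1 CPM in the same order. Of 14 measured anterior foregut and stratified epithelium genes, 2 were higher (ISL1 and IRX3) and 6 lower in the SOX2-low cells, and the other 6 kept no 2-fold difference. Of the 6 lower genes 5 reached 10 CPM only in the SOX2-high cells and IRX5 there and in CF, and the 2 higher ones only in the SOX2-low cells and CF, so these counts do not support a direction. NKX2-1, the lung and thyroid factor, was at 17.6 to 33.7 CPM in the SOX2-high cells, 0.366 to 1.09 CPM in the SOX2-low cells and 0.195 to 1.01 CPM in CF. TBX1, a factor of the pharynx, was at 11.4 to 35.3 CPM against 0.237 to 2.52 CPM, and DSG3, a desmosomal cadherin of stratified epithelium, at 31.1 to 55.8 CPM against 1.54 to 2.79 CPM. IRX1 had no UMI in any CF library, which allows up to 0.0293 to 0.0864 CPM by library, and was at 8.0 to 13.6 CPM in the SOX2-high cells. IRX2 and IRX5 were lower in the SOX2-low cells and stood between the WT groups in CF.

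Eye and position genes were read in the same way. Of 6 measured surface ectoderm and eye genes, MEIS1 and MEIS2 were higher and SIX2 lower in the SOX2-low cells. SIX2 reached 10 CPM only in the SOX2-high cells and MEIS2 only in the SOX2-low cells, which fixed their directions, and of all list genes called between the WT groups only MEIS1 reached it in both. MEIS2, a homeobox factor known to activate PAX6 in the lens, was at 68.4, 83.6, 68.3 and 51.9 CPM in the SOX2-low cells and 1.5 to 3.00 CPM in the SOX2-high cells. In CF MEIS2 was at 3.82 to 5.82 CPM. Whether MEIS2 acts on PAX6 in these cultures was not tested. Of 39 HOX genes 3 reached 10 CPM, none of them through the SOX2-low cells, so their count as lower there is no support for a direction. HOXB7 was at 3.18 to 3.95 CPM against 33.6 to 59.8 CPM, HOXA3 at 0.582 to 1.02 CPM against 11.9 to 23.2 CPM and HOXC9 at 0.302 to 0.613 CPM against 6.17 to 10.2 CPM. In CF HOXB7 stood at 18.9 to 34.2 CPM and HOXA3 at 0.0280 to 0.120 CPM. None of the 8 measured duct markers kept a 2-fold difference in either direction.

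The CF libraries were compared with each WT group by the same rule. Against the SOX2-high cells, 2.34% of all measured genes were higher and 2.07% lower in CF on all days. Of the lists, NR5A2, FOXA2, ISL1, IRX3, SOX7 and PAX6 were higher, and SOX2, PAX9, NKX2-1, TBX1, DSG3, IRX1, SIX2 and HOXA3 were lower. The former reached 10 CPM only in the SOX2-low cells and CF and the latter only in the SOX2-high cells, so their directions came with the filter. Against the SOX2-low cells, 1.05% of all measured genes were higher and 0.537% lower in CF, and of the lists IRX2, IRX5 and HOXB7 were higher and MEIS2 was lower, of which none reached 10 CPM in both groups. PAX6 itself was not at least 2-fold lower in CF on all 4 days, nor was SOX2, by that rule, on the log2(CPM + 1) scale.

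Markers of other cell types were read in the same cell groups. The ciliated cell markers summed to at most 0.678 CPM, the neural crest and glia markers to at most 0.204 CPM, and the immune and endothelial markers to 5.87 to 15.9 CPM in the SOX2-low cells, 2.71 to 12.4 CPM in the SOX2-high cells and 5.24 to 21.9 CPM in CF. Mesenchymal markers summed to 28.5 to 121 CPM, 14.0 to 64.3 CPM and 24.2 to 292 CPM in the same order. The highest sums came with VIM, the intermediate filament vimentin, which was at 232 and 261 CPM in CF on day 7 and 9, and at 35.6, 27.2, 40.3 and 117 CPM in the SOX2-low and 10.7, 55.0, 38.3 and 24.9 CPM in the SOX2-high cells in day order, so the WT groups changed places between days. None of the 3 measured mesenchymal markers kept a 2-fold difference between the WT groups on all days. Of the hindgut and duodenal list no gene reached 10 CPM, and CDX2, the intestinal regulator, had no UMI in any library. The duct markers summed to 10777 to 12054 CPM in the SOX2-low cells, 7398 to 9858 CPM in the SOX2-high cells and 9281 to 11434 CPM in CF. The part of other cell types in the SOX2 and PAX6 levels was not tested.

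The genes whose levels over the clusters were most like those of SOX2 and PAX6 were read as a description. Over the 39 WT clusters of at least 50 cells, the log2(CPM + 1) levels of SOX2 and PAX6 had a Pearson r of -0.91. The clusters share libraries and were cut on expression, and within the groups r was weaker, at -0.50 over 27 SOX2-high clusters and -0.18 over 12 SOX2-low clusters. The 10 genes most like SOX2 (r from 0.96 to 0.97) were IRX2, ADGRL2, PAX9, PAOX, HOXB7, ECHS1, NKX2-1, MMP14, IRX1 and SIX2. ECHS1, an enzyme of mitochondrial fatty acid oxidation, was at 38.2 to 57.2 CPM in the SOX2-high cells, at 0.366 to 1.19 CPM in the SOX2-low cells and at most 0.0293 CPM in CF. PAOX, a polyamine oxidase, was at 23.5 to 31.4 CPM, 0.453 to 1.29 CPM and at most 0.0400 CPM in the same order. The membrane protease MMP14 was at 33.5 to 52.4 CPM, 0.852 to 2.32 CPM and at most 0.117 CPM.

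The 10 genes most like PAX6 over the WT clusters (r from 0.95 to 0.97) were NRN1, SOX7, CKB, LOC123386962, TSPAN15, LOC106004129, NR5A2, DPP4, PRDM16 and MEIS2. NRN1, a neuronal growth protein, was at 127 to 270 CPM in the SOX2-low cells, 2.66 to 8.26 CPM in the SOX2-high cells and 117 to 216 CPM in CF. TSPAN15, a membrane tetraspanin, was at 89.9 to 112 CPM, 1.40 to 4.43 CPM and 89.7 to 131 CPM. CKB, a creatine kinase, was at 130 to 153 CPM, 1.69 to 5.95 CPM and 49.8 to 76.7 CPM. Over the 29 CF clusters of at least 50 cells a different list of 10 genes led, at r from 0.76 to 0.84, among them FNIP2, MAP3K21, KEAP1, RNF167, CDC25B, SLC35F6, TMPO, CCDC117 and SNX27, and no gene was in both lists. The WT list had a median r of 0.36 with PAX6 over the CF clusters, where the median over all compared genes was -0.15. The lists depend on the measure: with Spearman's rank correlation 3 of 10 genes were shared for SOX2 and none of 10 for PAX6 in WT.

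**Figure D5:**
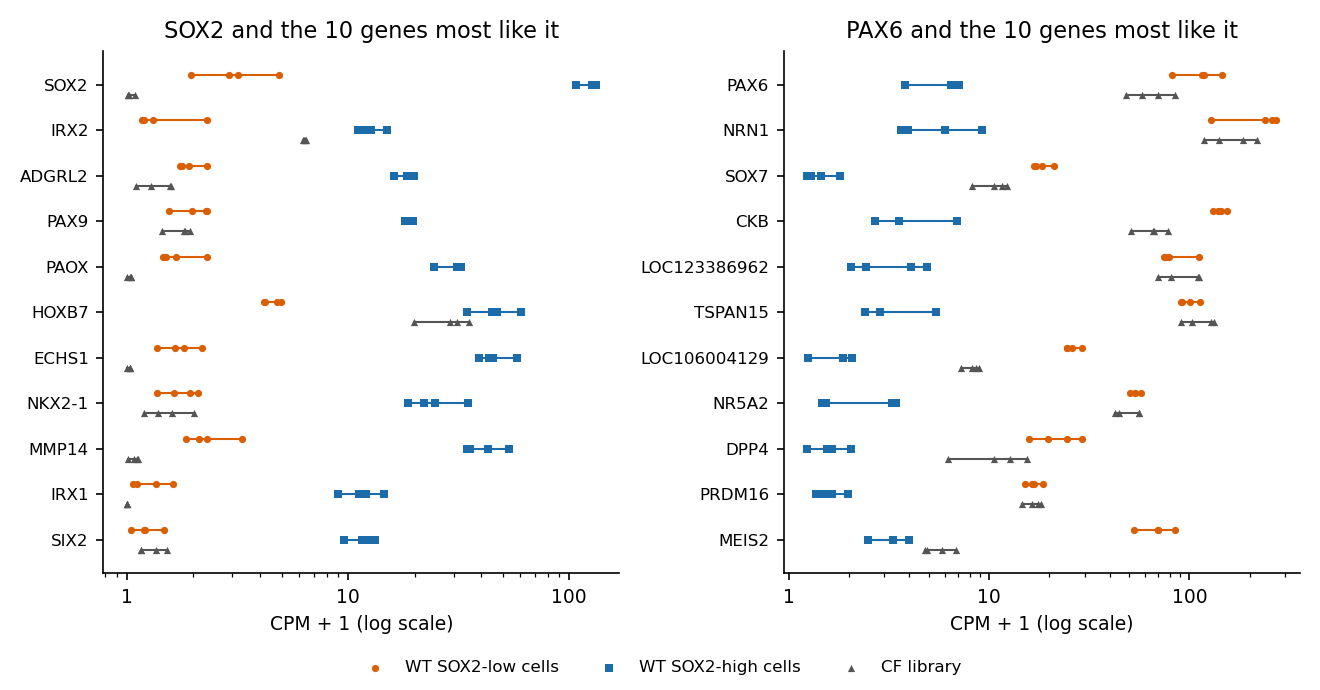
Level in CPM plus 1, log scale, of SOX2 and PAX6 and of the 10 genes most like each over the WT clusters, in SOX2-low WT cells (circles), SOX2-high WT cells (squares) and CF libraries (triangles), each with 4 days. The genes like PAX6 were at up to 8.26 CPM in the SOX2-high cells; in CF the genes like SOX2 were at or under 1.01 CPM except HOXB7 (18.9 to 34.2 CPM) and IRX2 (5.27 to 5.42 CPM).

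Neighboring genes were examined for the same pattern. LOC123387768, beside PAX6, was at 1.02 to 1.77 CPM in the SOX2-low cells, 0.0100 to 0.0552 CPM in the SOX2-high cells and 1.96 to 2.84 CPM in CF, with r of 0.84 with PAX6 over the WT clusters. ELP4 on the other side was at 10.5 to 14.5, 7.53 to 12.3 and 8.73 to 11.2 CPM, with r of 0.29. LOC123394417, whose span contains SOX2, had r of 0.92 with SOX2, a value that shared reads could give. Between CF and the SOX2-low cells LOC123387768 did not keep the order of its neighbor, being higher in CF while PAX6 was lower. LOC123394417 was low in both, with ranges over the days that overlapped, at 0.0977 to 0.360 CPM in CF and 0 to 0.216 CPM in the SOX2-low cells.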

How the data were processed

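Single-cell RNA libraries (10x Genomics) of 8 ferret PDE cultures were analysed, 1 per genotype and day, grouped by their titles. Per the submitters' processing notes and the methods, the authors counted UMIs with Cell Ranger 5.0.1 on ASM1176430v1.1, filtered cells at 200 genes and 20% mitochondrial UMIs and further on gene number, removed doublets with DoubletFinder and clustered each genotype with Seurat in R 4.1.2; whether counting used strand is not given in the sources used here. The deposited counts are raw UMIs of 27912 genes. The deposited lineage score is the authors' slingshot pseudotime. A deposited normalized table and cell cycle columns were not used.

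UMI sums were scaled to CPM (Python 3.11.15, numpy 2.4.6, scipy 1.17.1, pandas 2.3.3). Intervals are exact Poisson (sums), Clopper-Pearson (shares) and conditional binomial (ratios), at 95%, and a count of 0 allows 3 counts. With 1 library per group no test was run. Differences used log2(CPM + 1). Cells were thinned with a fixed seed. SOX2 and PAX6, the SOX2 limit and the gene lists were chosen with earlier results of these data known. Named were both genes, the 10 most correlated with each over clusters of at least 50 cells among genes at 10 CPM or more, list genes at least 4-fold apart between WT groups on all days (2-fold counts also named where few), PDX1, CFTR and annotation neighbors. Other genes (duct keratins, SOX9, FOXA1, VIM and genes at 0) were named after their values were seen, and some results that the rule would name are not reported here. The rule behind the list counts was checked only on Poisson counts simulated with known 4-fold changes, without any spread between libraries. Alternatives were other scalings (edgeR 4.0.16 TMM, DESeq2 1.42.0 size factors), pseudocounts, depths, limits, barcode sets and means over cells; 4 were chosen after seeing the data (leaving out clusters with both genes, for co-detection and for PAX6 levels, leaving out day 7, exact detection chance).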

Additional observations from a re-analysis of the deposited data

Results flagged for a closer look

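From day 2 to the later days PAX6 moved in opposite directions in the genotypes, while from day 5 through day 7 to day 9 it was lower each time in both (68.2, 43.6 and 28.5 CPM in WT, 68.5, 57.1 and 47.5 CPM in CF). From day 2 to day 5 its level changed by a ratio of 3.44 (3.28 to 3.61) in the WT libraries and 0.815 (0.787 to 0.845) in the CF libraries. From day 2 to day 9 the ratio was 1.44 (1.36 to 1.52) in WT and 0.566 (0.540 to 0.592) in CF. With the mean of the CPM of each cell in place of UMI sums, the ratio was 2.20 in WT and 0.849 in CF to day 5, and 1.18 and 0.635 to day 9. The intervals cover counting error only, and with 1 library per genotype and day the difference between genotypes was not tested. In the SOX2-low WT cells alone PAX6 went from 117 CPM on day 2 to 145 CPM on day 5 and 81.2 CPM on day 9, while their share of WT UMIs went from 12.8% to 45.8% and 30.5%.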

How the results depend on the processing

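SOX2 was lower in CF under each setting tried, and the size depended on the low CF counts. A pseudocount of 5 CPM gave log2 differences of -4.58, -3.87, -3.88 and -4.22 on day 2, 5, 7 and 9, and on day 2 TMM factors gave -7.04 and DESeq2 size factors -7.00. Against SOX2-low WT cells only, they were -2.27, -0.94, -1.41 and -1.64. For PAX6 the same restriction reversed the difference, to -0.48, -1.08, -1.0 and -0.76. The mean of the CPM of each cell gave a CF to WT ratio of PAX6 of 1.42 on day 5, where UMI sums gave 1.00. By UMI sums the log2 difference of PAX6, CF minus WT, was 2.03, 0.01, 0.38 and 0.72 in day order. On that log2 scale a pseudocount of 5 CPM gave 1.84 on day 2. TMM factors gave 0.18 on day 7 and 0.59 on day 9, and DESeq2 size factors 0.22 on day 7. These scaling factors move the log2 level of all genes in CF relative to WT by up to -0.21 (day 7). The ratio of WT cells with both genes to the product was 0.150, 0.0661 and 0.157 on day 2, 5 and 9 at 1000 UMIs, 0.0651 on day 5 at 5000 UMIs, 0.538 on day 2 without thinning and 0.0730 on day 5 with the exact chance. At 2 UMIs of each gene after thinning it was 0 on day 5, 7 and 9, where the product gave only 5.05, 2.90 and 2.40 cells. It stayed below 1 in each of these. The excess of both genes in left-out barcodes, pooled, was 2.95 without thinning and 3.75 with the exact chance. The 12 SOX2-low clusters were the same for limits of 5, 20 and 50 CPM. No leave-one-out by replicate was possible with 1 library per group, and the CF day 7 library held only 1607 cells.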
